A study of Rattus norvegicus with 2 samples.

Results

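The miRNAs described here are 5 that are best known from blood vessels, rno-miR-126, rno-miR-143, rno-miR-145, rno-miR-221 and rno-miR-222. They were chosen by name as markers of endothelium and smooth muscle in brain tissue, and they are 5 of the 349 rat miRNA probes on the array. Probes for partner strands, whose names end in an asterisk, were not among them.

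The study profiled small RNA from the nucleus accumbens (NAc), core and shell included, of male Sprague-Dawley rats. The rats weighed 150 to 180 g at the start. Rats of the vehicle group received 500 µl of saline i.p. bid, and rats of the alcohol group received alcohol at 1 g/kg i.p. bid, both for 7 days. The study used 18 rats, 9 in each group, and how their RNA was combined for hybridisation is not stated in the sources used here. Each group has 1 array, so there is no replicate check and no test across rats, and treatment and array cannot be told apart.

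Brain tissue is threaded with capillaries and small arteries, so RNA from a dissected region includes RNA of endothelial cells, pericytes and smooth muscle cells. miR-126 is made from within Egfl7, a gene of endothelial cells, and supports vessel integrity and the response to vascular growth factors. miR-143 and miR-145 are made together and favour the contractile, differentiated state of smooth muscle, while miR-221 and miR-222 are a related pair that act on growth of vascular cells and are also made by many other cell types.

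Each array held 9 spots of every miRNA probe, and a spot's raw density is its mean pixel brightness with no background removed. Detection required 5 or more of the 9 spots to lie over a threshold set from mismatched control probes, at a raw density of 278 for vehicle and 179 for alcohol. By that rule 151 miRNAs passed for vehicle, 196 for alcohol and 150 for both. A rule based on empty spots gave 348 for vehicle and 184 for alcohol, so which array detected more depended on the rule. The median raw density of those 150 miRNAs was 952 for vehicle and 1951 for alcohol, while the median of empty spots was 202 and 141, so the arrays differed before any normalization, and not in 1 direction. Normalized signals and ratios below were obtained after background correction and cyclic loess normalization of the 2 arrays, and the SD of a ratio is the spread over its 9 spots, which covers technical error within the arrays and not variation between rats.

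The label of brain tissue was checked against neuronal miRNAs, which cannot tell the NAc from other brain regions. All 6 on the array, miR-9, miR-124, miR-128, miR-132, miR-137 and miR-138, were detected on both arrays. All 5 vascular miRNAs were detected on both arrays too, with 9 of 9 spots above the threshold for each of them on each array.

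Of the 5 vascular miRNAs, 1 was at least 1.3-fold higher with alcohol and 0 were at least 1.3-fold lower. The background for these counts was 26.4% higher and 20.8% lower among the 125 miRNAs that were detected on at least 1 array and reached a normalized signal of 400 on the brighter array. The miRNA that passed was miR-145, at 1.51-fold. These counts depended on the scaling. Without normalization 4 members were higher and 0 lower, beside 85 and 8 of all miRNAs. Under median scaling 0 members were higher and 3 lower, beside 17 and 79 of all miRNAs. The median log2 ratio of the 5 was 0.16, against -0.070 for the 150 miRNAs detected on both arrays, whose lower and upper quartiles were -0.39 and 0.27. A count of 1 in 5 is near the background share and is not a result about vascular miRNAs as a set. In bulk tissue, fewer cells of a type and less RNA per cell cannot be told apart, so none of these ratios separates vessel content from expression within vessel cells.

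The mature sequences are shown because the probes read them directly and because they tell which members could share targets. Each probe's target equalled a mature miRNA of RefSeq (rat build GRCr8) over its whole length, for 5 of 5 members and 289 of all 349 miRNA probes. Capitals mark the seed, bases 2 to 8, with which a miRNA pairs to its targets.
miR-126: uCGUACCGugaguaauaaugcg
miR-143: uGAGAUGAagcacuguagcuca
miR-145: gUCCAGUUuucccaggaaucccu
miR-221: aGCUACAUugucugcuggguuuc
miR-222: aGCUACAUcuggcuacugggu
miR-221 and miR-222 share the seed GCUACAU and their first 8 bases. Counted from the 5′ end they have the same base at 11 of 21 positions. No other probe on the array had the seed of miR-126, miR-143 or miR-145, and miR-143 and miR-145 do not share a seed with each other.

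On GRCr8, miR-126 maps to chr3:29813219-29813240 on the plus strand, within the span of Egfl7. miR-143 maps to chr18:57371373-57371394 and miR-145 to chr18:57370033-57370055, both on the minus strand and within the span of the long noncoding RNA gene Carmn. Their hairpins are 1278 bases apart. miR-221 maps to chrX:6023246-6023268 and miR-222 to chrX:6022682-6022702, both on the plus strand and within the spans of 2 uncharacterised long noncoding RNA genes, with 458 bases between the hairpins. The 5 miRNAs thus come from 3 loci, 1 of endothelial type and 2 that each hold a pair.

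The endothelial miRNA, miR-126, was clearly measured on both arrays and differed little between them after cyclic loess normalization. Its raw spot density on the vehicle array was 5269.5 at the lowest, 5999 at the median and 7259.6 at the highest of 9 spots, with a mean of 6104 ± 673 (SD). On the alcohol array the lowest, median and highest spots read 7301, 7863 and 8365, with a mean of 7856 ± 349 (SD). Every alcohol spot lay above every vehicle spot, but the gap between the highest vehicle spot and the lowest alcohol spot was narrow. The mean densities were 21.98 times the detection threshold for vehicle and 43.9 times for alcohol. After normalization the signal was 6443 with vehicle and 7179.7 with alcohol, a log2 ratio of 0.16 ± 0.15 (SD), or 111% of vehicle. That ratio was about as large as its spot SD. After normalization, with the spot differences centred on the ratio, 8 of 9 spots were higher on the alcohol array, as against all 9 in raw density. The ratio ranked 47 from the top among the 125 miRNAs and was below 0 in 3 of 17 other settings. Over those settings the ratio ran from -0.83 under median scaling to 0.69 with scaling to 5S rRNA. It was past 1.3-fold higher in 3 of them and past 1.3-fold lower in 2. The partner strand, rno-miR-126*, had 0 of 9 spots over the mismatched control threshold on each array, so by that rule the locus was read from 1 strand alone. On the vehicle array the median spot of rno-miR-126*, at 239.9, was over the 234.4 of the rule based on empty spots.

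Of the smooth muscle pair, miR-145 passed the 1.3-fold rule and miR-143 did not. Raw spots of miR-143 read 656, 712 and 819 at the lowest, median and highest on the vehicle array, with a mean of 739 ± 57.9 (SD). On the alcohol array they read 1374, 1492 and 1527, with a mean of 1476 ± 50.3 (SD). The spots of the arrays were far apart in raw density, with the lowest alcohol spot well above the highest vehicle spot. Most of that gap was removed by the normalization. The normalized signal of miR-143 was 855 with vehicle and 1006 with alcohol, a log2 ratio of 0.23 ± 0.14 (SD), or 118% of vehicle. All 9 spots were higher on the alcohol array after normalization, from 0.059 to 0.48 on the log2 scale, and the ratio ranked 42 of 125. It was below 0 in 1 of the 17 other settings, median scaling, and was 0.00 with quantile normalization.

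miR-145, which drives smooth muscle differentiation together with miR-143, had the highest ratio of the 5. Its raw spots read 830.2, 1073.5 and 1295 at the lowest, median and highest on the vehicle array, with a mean of 1044 ± 176 (SD), and 2383, 2567 and 2692 on the alcohol array, with a mean of 2548 ± 107 (SD). The arrays did not overlap, and vehicle spots were the more scattered, with a coefficient of variation of 16.8% against 4.20% on the alcohol array. Over the 150 miRNAs the median coefficient was 9.10% for vehicle and 6.38% for alcohol. The normalized signal was 1216 with vehicle and 1842 with alcohol, a log2 ratio of 0.60 ± 0.28 (SD), or 151% of vehicle. All 9 spots were higher on the alcohol array after normalization, from 0.24 to 1.00 on the log2 scale, and the ratio ranked 19 of 125. The call depended on the normalization, because miR-145 did not reach 1.3-fold with quantile normalization (log2 ratio 0.10) or with median scaling (0.24).

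The ratios of the pair from the Carmn locus were set against each other, since a constant scaling of an array cannot move that difference. The log2 ratio of miR-145 exceeded that of miR-143 by 0.36, with a combined spot SD of 0.31. The difference was thus only just larger than that SD, which is a spread of single spots and not the error of a mean. The difference ranged from 0.10 to 0.59 over the other settings tried. These are 13 for such a difference, because the 4 constant scalings give the same value as no normalization. The difference stayed above 0 in each of the 13 and was past the combined spot SD in 7. But a difference of that size between 2 probes on 1 pair of arrays is not shown to exceed the variation between rats.

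miR-221 and miR-222, which share a seed and restrain targets such as the receptor Kit, gave ratios on either side of 0. Raw spots of miR-221 read 3527, 3835 and 4243 at the lowest, median and highest on the vehicle array, with a mean of 3855 ± 263 (SD). On the alcohol array they read 5099.6, 5449.9 and 5832, with a mean of 5439 ± 239 (SD). The arrays did not overlap in raw density. After normalization the signal was 4290.3 with vehicle and 4656 with alcohol, a log2 ratio of 0.12 ± 0.084 (SD), or 109% of vehicle. With the spot differences centred on this normalized ratio, 8 of 9 spots were higher on the alcohol array. The ratio of miR-221 was below 0 in 3 of 17 other settings. Median scaling gave -0.69 and scaling to the 75th percentile -0.44, both past 1.3-fold lower. The authors' own processed signals gave -0.067, so the direction of the ratio depended on the processing.

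For miR-222 the raw spots read 5431, 5998 and 6395 on the vehicle array, with a mean of 5915 ± 311 (SD), and 6122.5, 6681 and 6985 on the alcohol array, with a mean of 6575 ± 286 (SD). Here the arrays overlapped, which was so for no other member. The normalized signal was 6364 with vehicle and 5908 with alcohol, a log2 ratio of -0.11 ± 0.044 (SD), or 92.8% of vehicle. After normalization, with spot differences centred on this ratio, 0 of 9 spots were higher on the alcohol array. In raw density every alcohol spot was above the vehicle spot at its position. The spot spread of the ratio was small, but the ratio was close to the median of -0.070 over the 150 miRNAs, and its sign changed with 4 of 17 other settings. The ratio of miR-222 was lower than that of miR-221 by 0.23 on the log2 scale (difference -0.23, combined spot SD 0.094). This difference kept its sign in all 13 such settings, between -0.36 and -0.076, and at the upper end, with the trend over GC content removed, it was within the spot SD.

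**Figure D1:**
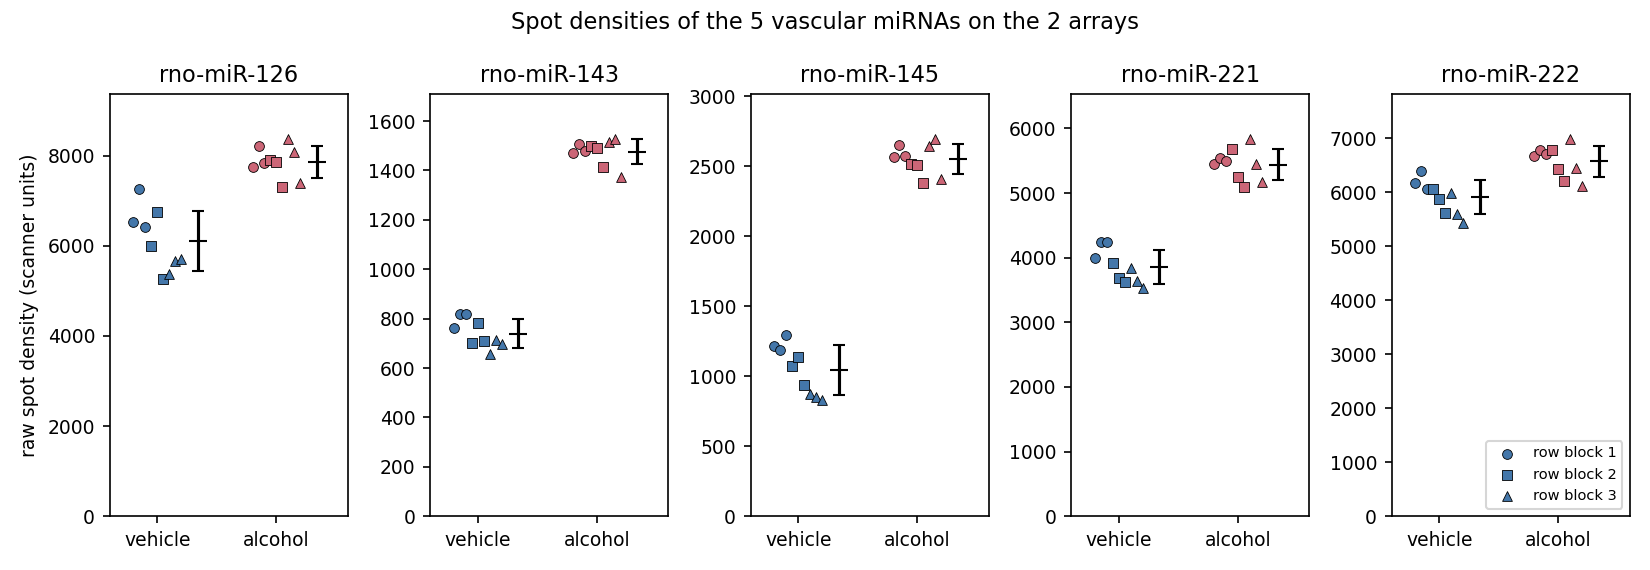
Raw spot density (vertical axis, scanner units, from 0) of the 5 vascular miRNAs on the vehicle and alcohol arrays, 9 spots each, with symbols for 3 blocks of rows on the array and bars for mean ± SD. Alcohol spots lie above all vehicle spots for miR-126, miR-143, miR-145 and miR-221 and overlap them for miR-222, and vehicle spots of miR-145 decline from a mean of 1233 in row block 1 to 851 in row block 3.

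In raw density, 4 of the 5 members had every alcohol spot above every vehicle spot, and the same was true of 56.0% of the 125 miRNAs. Spots lying wholly below were found for 0 of 5 members and for 11.2% of the 125. The raw separation was therefore common on these arrays. Cyclic loess removed a log2 shift of 0.97 from miR-143 and 0.86 from miR-145. It removed 0.41 from miR-221, 0.28 from miR-222 and 0.23 from miR-126, where the median over the 150 miRNAs was 0.79. The shift removed from miR-145 was larger than the ratio that remained.

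Ordered by ratio, the members ran from miR-145 through miR-143, miR-126 and miR-221 to miR-222. The neighbours miR-143 and miR-126 differed by 0.078 (combined spot SD 0.21), and miR-126 and miR-221 by 0.038 (combined spot SD 0.18). Under cyclic loess those 3 were thus not separated beyond their spot spread. Without normalization, and equally under the 4 constant scalings, miR-143 exceeded miR-126 by 0.81 and miR-221 by 0.67, past the combined spot SDs of 0.21 and 0.16, while the lead of miR-145 over miR-143 was 0.25 and within its SD. Where the order broke thus depended on the setting. miR-145 had the highest and miR-222 the lowest ratio of the 5 in all 13 settings that could move the order, although the lead of miR-145 over miR-221 was 0.019 with quantile normalization.

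**Figure D2:**
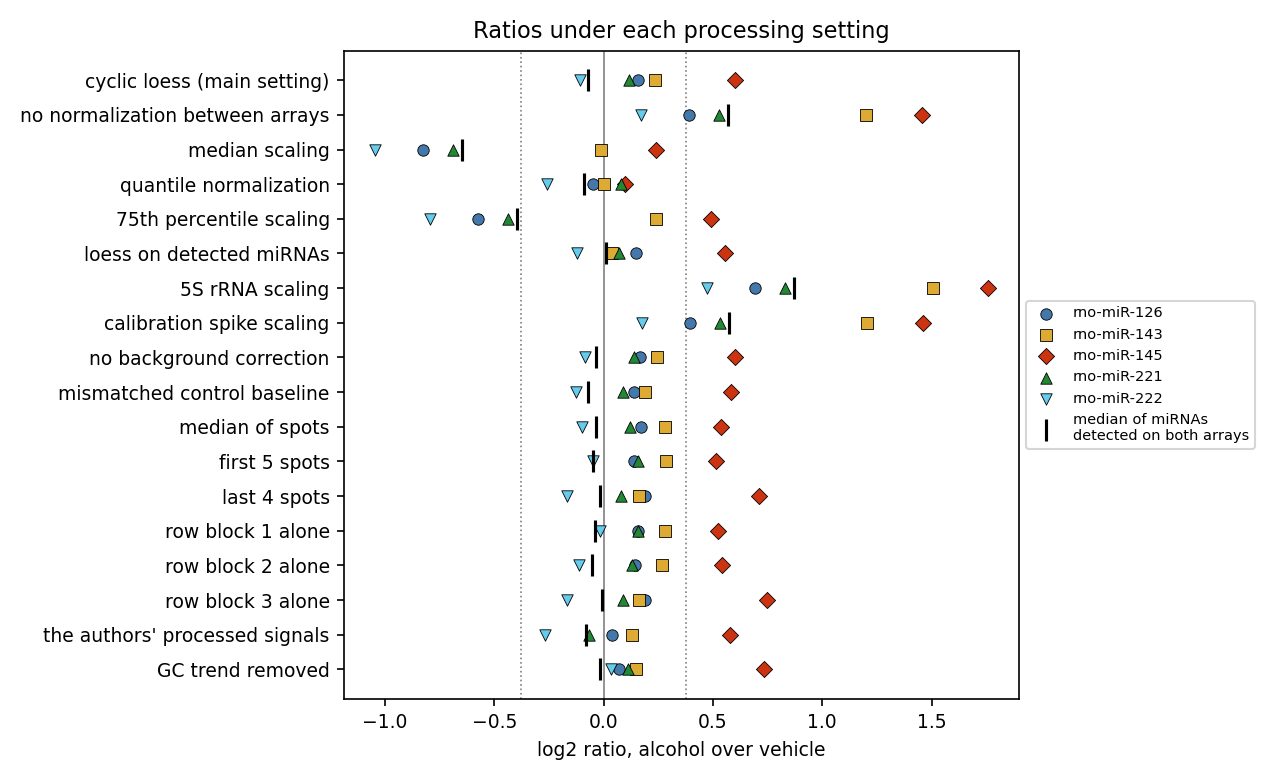
Log2 ratio of alcohol over vehicle (horizontal axis) for the 5 vascular miRNAs under cyclic loess and 17 other settings, 1 line per setting; the black bar is the median of the 150 miRNAs that both arrays detected and the dotted lines mark 1.3-fold. miR-145 lies between 0.10 and 1.76 and above 0 throughout, whereas among the 17 other settings miR-126 and miR-221 fall below 0 in 3 each, miR-143 in 1 and miR-222 in 13, and miR-222 is also below 0 under cyclic loess.

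Scalings that multiply a whole array moved all 5 members together with the other miRNAs. With no normalization the log2 ratio was 1.46 for miR-145 and 1.20 for miR-143, and it was 0.39 for miR-126, 0.53 for miR-221 and 0.17 for miR-222. The median of the 150 miRNAs was then 0.57. Relative to that median, miR-145 stood at 0.89 and miR-143 at 0.63, while miR-126 (-0.18), miR-221 (-0.039) and miR-222 (-0.40) stood below it. Under cyclic loess the corresponding distances were 0.67, 0.30, 0.23, 0.19 and -0.038 in the same order. With the constant scalings, which cannot move these distances, counted once with no normalization, 13 other settings remained. miR-145 and miR-143 lay above the median of the 150 in 13 of 13, miR-126 and miR-221 in 12 each, no normalization being the exception, and miR-222 in 2. The lead of miR-143 was as small as 0.028, with loess on detected miRNAs, and that of miR-145 as small as 0.19, with quantile normalization, both within their spot SD. The smooth muscle pair was thus above the median miRNA throughout these settings, and the side of the median taken by miR-126, miR-221 and miR-222 depended on the setting.

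The processed signals that the authors deposited gave 1116 with vehicle and 1666 with alcohol for miR-145, a log2 ratio of 0.58. For miR-143 these signals were 785 and 858, and for miR-126 they were 6201 and 6366, with log2 ratios of 0.13 and 0.038. miR-145 was again the single member past 1.3-fold. For miR-221 the processed signals were 4211 and 4022, and for miR-222 they were 6167 and 5122, with log2 ratios of -0.067 and -0.27. Both members of that pair were on the lower side in the authors' processing, where the median over the 150 miRNAs was -0.081.

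Vehicle spots were dimmer in the last than in the first of 3 blocks of rows, each with 3 spots of a probe. Among the 150 miRNAs the median log2 difference of row block 3 from row block 1 was -0.25 on the vehicle array, and 145 of 150 were lower in block 3. On the alcohol array it was -0.0030, with 78 of 150 lower. The drop on the vehicle array was -0.61 for miR-145, past the lower quartile of -0.47. It was -0.28 for miR-126, -0.26 for miR-143, -0.19 for miR-221 and -0.13 for miR-222. Vehicle spots of miR-145 averaged 1233, 1048 and 851 in blocks 1, 2 and 3, against 2596, 2468 and 2582 on the alcohol array, so its raw ratio went from 2.10 through 2.36 to 3.03. With each block normalized alone, a setting chosen after seeing the data, the log2 ratio of miR-145 was 0.52, 0.54 and 0.75. It passed 1.3-fold in each block. The part of the drift in the ratios was not tested beyond these values.

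GC content also differed among the members, at 45.5% for miR-126 and miR-143, 47.8% for miR-221, 52.2% for miR-145 and 52.4% for miR-222, and the median of the 150 was 47.8%. Over those 150 miRNAs the log2 ratio declined by a slope of -0.33 per 10 percentage points of GC. With that trend removed, miR-145 stood at 0.73, miR-143 at 0.15, miR-221 at 0.11, miR-126 at 0.070 and miR-222 at 0.033. The step was centred on the mean GC content of the 150. Because the slope is negative, it by construction raised the ratios of miR-145 and miR-222, which lie above that mean, and lowered the others. The part of GC content in the ratios was not tested.

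For each member, the other miRNA of nearest log2 ratio was found among 117 that were detected on both arrays and reached the signal minimum. It was miR-125a-5p (0.17) for miR-126, miR-495 (0.22) for miR-143 and miR-598-3p (0.58) for miR-145. For miR-221 it was miR-125b-5p (0.12), and for miR-222 it was miR-26a (-0.11). With 1 pair of arrays, nearness is in a single ratio and is no shared pattern.

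Other miRNAs known from vessel cells were taken as lists. Of 15 endothelial or angiogenic miRNAs on the array, 11 were detected and 8 reached the signal minimum, of which 4 were at least 1.3-fold higher and 0 lower, beside background shares of 26.4% and 20.8%. The 3 of largest ratio were miR-27a at a log2 ratio of 1.84 ± 0.51 (SD), miR-92a at 0.69 ± 0.36 (SD) and miR-23a at 0.44 ± 0.26 (SD). miR-27a and miR-92a were past 1.3-fold higher in all 17 other settings, and miR-23a in 11, with values below 0 in 2 and as low as -0.53 under median scaling. The remaining one was miR-21 at 0.44 ± 0.33 (SD), a name given after its values were seen, whose alcohol signal of 400.3 only just reached the minimum and which was past 1.3-fold in 12 of the 17, with a lowest value of 0.053. miR-31, likewise named after its values were seen, was at -0.41 ± 0.16 (SD), past 1.3-fold lower but under the minimum, and above 0 in 3 of 17 other settings. The member of highest signal, miR-23b, was at -0.00069, and the median of the 11 detected was 0.12. The list's summed normalized signal was 27593 with vehicle and 31748 with alcohol. The list thus held a few ratios larger than the 0.16 of miR-126.

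Of 12 smooth muscle, pericyte or mesenchymal miRNAs besides miR-143 and miR-145, 8 were detected and 5 reached the minimum. Of these, 2 were at least 1.3-fold higher and 0 lower, again beside 26.4% and 20.8%, namely miR-100 at 0.92 ± 0.35 (SD) and miR-21, which stands in both lists, as does miR-24. miR-214, named after its values were seen, was at -0.53 ± 0.21 (SD), past 1.3-fold lower but under the minimum, and below 0 in all 17 other settings. miR-24 had the highest signal of this list and was at 0.031. The median of the 8 was 0.023, and the summed signal was 9815.7 with vehicle and 11309 with alcohol. Under cyclic loess that median was below the ratios of miR-143 and miR-145, but with loess on detected miRNAs it was 0.12 and above the 0.040 of miR-143. The medians of both lists turned below 0 with median scaling (-0.52 for the endothelial list and -0.47 for the smooth muscle list) and with scaling to the 75th percentile (-0.27 and -0.22), and that of the smooth muscle list also with quantile normalization (-0.058) and the median of spots (-0.0066). Across the 349 miRNAs the median was 0.0067, and across the 197 detected on at least 1 array it was 0.025.

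Lists of blood cell and striated muscle miRNAs were read as well. Of 7 erythroid and blood cell miRNAs, miR-451, miR-144, miR-142-3p, miR-142-5p and miR-223 were not detected on either array by the mismatched control rule. The 2 detected had a median of -0.20, and 1 of them reached the signal minimum, miR-150 at 0.075 ± 0.56 (SD), which was not called. The ratio of miR-150 was -0.20 with the median of spots. It was below 0 in 8 of 17 other settings and past 1.3-fold higher in 5. The other, miR-146a, named after its values were seen, was at -0.48 ± 0.22 (SD), past 1.3-fold lower but under the minimum, and above 0 in 3 of 17 other settings. The list's summed signal was 3832.5 with vehicle and 3901.5 with alcohol. Of 6 skeletal and cardiac muscle miRNAs 1 was detected, miR-133a on the vehicle array alone, and 0 reached the minimum. The part of blood or muscle RNA in the ratios of the 5 vascular miRNAs was not tested.

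Of the 6 neuronal miRNAs, 2 were past 1.3-fold higher and 0 lower, beside 26.4% and 20.8%, with a median of 0.027. miR-137 was at 0.55 ± 0.16 (SD), past 1.3-fold in 14 of 17 other settings and below 0 in 2, as low as -0.52 under median scaling. miR-9 was at 0.72 ± 2.58 (SD), which rested on 1 vehicle spot of 289.9 where the median vehicle spot was 37278, and with the median of spots it was at 0.027 and not past 1.3-fold. miR-128 had the highest mean normalized signal over both arrays, with that low spot of miR-9 included, and was at 0.025. Of 2 oligodendrocyte miRNAs, both detected on the alcohol array alone, 1 reached the minimum and was called. This was miR-338, which under cyclic loess was at least 3.09-fold higher with alcohol. That value is a bound, because miR-338 was not detected with vehicle by the mismatched control rule. Its ratio of signals was as low as 1.98 without background correction. The part of any change in cell makeup in the ratios of the 5 vascular miRNAs was not tested.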

How the data were processed

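Small RNA from the NAc of vehicle- and alcohol-treated rats was hybridised to 1 LC Sciences array per group. The authors deposited the spot intensity of each array, the mean pixel density without background subtraction, and a processed intensity per probe, on a linear scale, which they had background-handled, averaged over spots and normalized with a cyclic procedure. Its tool and settings are not given in the sources used here. Those processed values had a median over the miRNA probes of 42.7 (vehicle) and 50.2 (alcohol); how they were centred is not known.

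Background was corrected over all 3968 spots per array with limma 3.58.1 (R 4.3.3), method normexp, offset 50. Separate background columns had been foreseen, but the files hold foreground alone, on which normexp was fitted. Log2 values were averaged over 9 spots and normalized by cyclic loess (span 0.7, 3 iterations) over 349 miRNA probes. Other steps used Python 3.11.15, numpy 2.4.6 and pandas 2.3.3. The detection threshold was the median plus 3 scaled median absolute deviations of 88 mismatched control spots. A miRNA below it on 1 array has a ratio given as a bound, the brighter signal over the higher of its own signal and the lowest detected signal on the other array. The cyclic loess setting was tested on simulated arrays with known changes in both directions and no drift over row blocks. The other settings were not tested in this way.

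The members and the 6 lists (endothelial and angiogenic; smooth muscle, pericyte and mesenchymal; erythroid and blood cell; skeletal and cardiac muscle; neuron; oligodendrocyte) were chosen with earlier results of these data known. Named besides the members were, for each, the miRNA of nearest ratio, and in each list the miRNAs past 1.3-fold (at most 3 in each direction) and that of highest signal. List names were matched to probe names, with miR-10a and miR-199a read as their 5p probes and miR-199a* as the 3p probe; miR-128a, miR-128b, miR-143*, miR-145*, miR-155, miR-219 and miR-486 had no probe of that name. Alternatives were other scalings, other background and detection rules, subsets of spots, the authors' processed values, a GC trend and other thresholds. The number of arrays limits the precision.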

Additional observations from a re-analysis of the deposited data

How the results depend on the processing

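Over the 17 other settings tried on the ratios, 3 of them (each row block alone) chosen after seeing the data, none turned the direction of miR-145, whose log2 ratio ran from 0.10 to 1.76 and passed 1.3-fold in 15. Without normalization between arrays the log2 ratio was 0.39 for miR-126, 1.20 for miR-143, 1.46 for miR-145, 0.53 for miR-221 and 0.17 for miR-222, and 4 members were at least 1.3-fold higher. Scaling to the calibration spike gave 0.39, 1.21, 1.46, 0.53 and 0.17 in that order, again with 4 members higher. Scaling to 5S rRNA gave 0.69, 1.504, 1.76, 0.83 and 0.47, with 5 members higher. Median scaling gave -0.83, -0.013, 0.24, -0.69 and -1.05, with 0 members higher and 3 lower. Scaling to the 75th percentile gave -0.58 for miR-126, -0.44 for miR-221 and -0.80 for miR-222, with 3 members lower. Quantile normalization gave -0.051 for miR-126, 0.00 for miR-143, 0.10 for miR-145 and -0.26 for miR-222. It left 0 members higher and 0 lower, beside 27 and 30 of all miRNAs. Loess on detected miRNAs gave 0.040 for miR-143. The authors' processed signals gave -0.067 for miR-221 and -0.27 for miR-222. Removing the GC trend gave 0.033 for miR-222, the first 5 spots gave -0.050, the last 4 spots -0.17, row block 1 alone -0.018 and row block 3 alone -0.17. The ratio of miR-222 minus that of miR-221 was -0.36 without normalization and under all 4 constant scalings, -0.34 under quantile normalization and -0.076 with the GC trend removed. The median log2 ratio of the 150 miRNAs detected on both arrays, -0.070 under cyclic loess, was 0.57 without normalization, 0.57 with the spike, 0.87 with 5S rRNA, -0.65 under median scaling and -0.40 under the 75th percentile. The endothelial list's median was 0.69, 0.70, 0.99, -0.52 and -0.27 in these 5 settings, and 0.40 with loess on detected miRNAs. The smooth muscle list's median was 0.74, 0.75, 1.05, -0.47 and -0.22. The neuron list's median was 0.39 with 5S rRNA, -1.13 under median scaling, -0.87 under the 75th percentile, -0.0029 with the last 4 spots and 0.11 in the authors' signals. Under cyclic loess 33 miRNAs were called higher and 26 lower, so 55.9% of calls were higher. This became 85 and 8 (91.4%) both without normalization and with the spike, 100 and 2 (98.0%) with 5S rRNA, 17 and 79 (17.7%) under median scaling, 28 and 60 (31.8%) under the 75th percentile, and 25 and 33 (43.1%) in the authors' signals. A 1.5-fold threshold left 19 higher and 21 lower (47.5%), and a 2-fold threshold left 11 higher and 5 lower (68.8%), with 0 members. The detection rule based on empty spots gave 33 higher and 26 lower, as under the main rule. For the changes between settings the cause was not tested. No paired analysis was possible because both groups hold 1 array. Signal over background limits miR-143 and miR-145 most on the vehicle array, at 2.66 and 3.76 times the detection threshold.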
